A study of Arabidopsis thaliana with 16 samples.

Results

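The 9 genes described here encode the major light-harvesting complex of photosystem II (LHCII) in Arabidopsis thaliana. They were chosen by gene identifier and comprise LHCB1.1 to LHCB1.5, LHCB2.1 to LHCB2.3 and LHCB3, 9 of the 28598 genes in the count table. Transcripts were measured by RNAseq in 8 libraries from suspension cells of the Columbia (Col-0) accession, a dispersed culture derived from leaves. All cultures were shaken in B5 medium that contained sucrose and the auxin 2,4-D, so both conditions were supplied with carbon. The 4 light grown libraries came from cells kept in constant light. The 4 dark grown libraries came from cells in flasks wrapped in foil, which had been adapted to darkness for 2 weeks before sampling 16 h after the second subculture. Each label gives 16 h for both conditions, as does the published account of the 8 cultures, and the treatment description also names 5 days for light grown cells without tying that time to a sample. The libraries are described as separate replicate cultures, 4 in each condition, and p-values measure the spread between libraries. The culture methods also mention duplicates, so how independent the 4 libraries of a condition are is not settled.

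LHCII is a trimer of chlorophyll a/b-binding proteins in the thylakoid membrane of the chloroplast. It collects light for photosystem II, is imported as nuclear-encoded precursors, and is the most abundant membrane protein complex of green leaves. LHCB1 and LHCB2 proteins carry the phosphorylation sites used in state transitions, the redistribution of light energy between the photosystems, whereas LHCB3 lacks such a site. LHCB genes are classic targets of light, circadian and chloroplast signals in seedlings.

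The genes lay on 4 of the 5 nuclear chromosomes in the TAIR10.1 assembly of RefSeq. LHCB1.1 (AT1G29920), LHCB1.2 (AT1G29910) and LHCB1.3 (AT1G29930) formed a cluster on chromosome 1, with starts 1916 to 4383 bases apart. LHCB1.4 (AT2G34430) and LHCB1.5 (AT2G34420) faced away from each other on chromosome 2, with 1038 bases between them. LHCB2.1 (AT2G05100) and LHCB2.2 (AT2G05070) stood on the same strand of chromosome 2, with starts 24008 bases apart. LHCB2.3 (AT3G27690) was on chromosome 3 and LHCB3 (AT5G54270) was on chromosome 5. The 5 LHCB1 genes each had 1 exon, the 3 LHCB2 genes had 2 exons, and LHCB3 had 3 exons.

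The 250 bases before the annotated start are shown for the highest and a barely detected member of LHCB1 and of LHCB2, and for LHCB3, because these genes span the range of levels found below. In TAIR10.1 the windows lie at chr2:14523569-14523818 (minus strand) for LHCB1.5, chr2:14524357-14524606 (plus strand) for LHCB1.4, chr2:1824481-1824730 (minus strand) for LHCB2.1, chr3:10255656-10255905 (plus strand) for LHCB2.3 and chr5:22037915-22038164 (plus strand) for LHCB3. Each reads 5′ to 3′ on the strand of its gene, and capitals mark matches, on either strand, to CCAAT (the CCAAT box), CACGTG (the G-box), GATAAG (the I-box), AAAAATCT or AACAATCT (the site of the clock factor CCA1) and AAAATATCT (the evening element). A match on the reverse strand appears as its complement, so that ATTGG marks a reversed CCAAT.
LHCB1.5: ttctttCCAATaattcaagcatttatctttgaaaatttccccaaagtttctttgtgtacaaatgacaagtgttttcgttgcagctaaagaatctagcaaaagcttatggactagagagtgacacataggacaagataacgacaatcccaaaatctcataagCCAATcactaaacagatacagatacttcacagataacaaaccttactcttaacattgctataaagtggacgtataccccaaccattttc
LHCB1.4: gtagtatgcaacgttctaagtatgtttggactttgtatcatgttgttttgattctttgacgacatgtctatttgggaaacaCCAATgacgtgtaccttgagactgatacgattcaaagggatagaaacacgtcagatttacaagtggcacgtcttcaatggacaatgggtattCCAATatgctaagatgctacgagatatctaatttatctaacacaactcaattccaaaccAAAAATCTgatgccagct
LHCB2.1: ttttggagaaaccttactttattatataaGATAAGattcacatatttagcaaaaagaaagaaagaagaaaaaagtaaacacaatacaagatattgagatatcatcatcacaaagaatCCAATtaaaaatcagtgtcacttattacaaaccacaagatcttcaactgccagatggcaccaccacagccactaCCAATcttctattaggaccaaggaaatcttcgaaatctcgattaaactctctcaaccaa
LHCB2.3: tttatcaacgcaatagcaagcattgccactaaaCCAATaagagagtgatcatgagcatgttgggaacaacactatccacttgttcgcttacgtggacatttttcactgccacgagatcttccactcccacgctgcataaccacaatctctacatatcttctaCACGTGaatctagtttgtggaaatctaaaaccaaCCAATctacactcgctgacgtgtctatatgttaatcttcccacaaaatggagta
LHCB3: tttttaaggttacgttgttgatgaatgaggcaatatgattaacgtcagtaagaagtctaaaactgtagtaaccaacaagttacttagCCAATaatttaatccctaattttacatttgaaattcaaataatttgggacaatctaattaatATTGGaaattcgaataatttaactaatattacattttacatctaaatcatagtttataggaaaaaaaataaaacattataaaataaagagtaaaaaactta

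CCAAT was found in the windows of all 9 genes, and in 46.1% of the 27561 windows of the same length before annotated genes. The G-box occurred before LHCB2.3 alone among the 9 genes and before 6.5% of all genes. The I-box occurred before LHCB2.1 alone, against 12.3% of all genes. The CCA1 site occurred before LHCB1.1 and LHCB1.4, against 8.4% of all genes, and the evening element before none of the 9, against 2.4%. These are matches of letters. The gene with the highest level in the light, LHCB1.5, had CCAAT as its only match, while the barely detected LHCB1.4 had CCAAT and the CCA1 site.

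Library totals ranged from 18363149 to 37813411 counts in the light and from 29916585 to 32688689 in the dark. Counts were scaled to CPM (counts per 1000000 effective library counts) with TMM factors, and 3 counts, taken as the limit of detection in a library, correspond to 0.0779 to 0.159 CPM. The intervals on counts given below cover counting error only. Light replicate 4 had the fewest counts and the lowest level of every tested LHCII gene among light grown libraries. Dark replicate 2 had the most LHCII counts among dark grown libraries. Without both libraries the number of genes called in the whole table rose from 1912 to 4850, and the LHCII fold changes are given without them further below. Of 8 markers of phloem, epidermis, root hair, guard cell and xylem, 3 (APL, PDF1 and EXPA7) had 0 counts in every library and 1 (COBL9) passed the low-count filter. The summed level of these markers was 5.04 to 6.08 CPM in the light and 4.04 to 9.81 CPM in the dark.

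Summed LHCII transcripts were far higher in light grown cells than in the dark, where they were scarce. In the dark, LHCB3 and LHCB1.5 exceeded the limit of detection in every library and the other genes in at most 1 library. The 9 genes together took 0.0364%, 0.0377%, 0.0443% and 0.0214% of all counts in Light replicates 1 to 4. The same genes took 0.000218%, 0.00131%, 0.000131% and 0.000134% in Dark replicates 1 to 4. The groups did not overlap, although Dark replicate 2 held 428 LHCII counts and the other dark libraries held 40 to 68. In a bulk culture, fewer cells that express a gene and less transcript in each cell cannot be told apart.

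Of the 9 genes, 7 passed the low-count filter, and all 7 were lower in the dark (edgeR quasi-likelihood F-test, Benjamini-Hochberg adjusted p under 0.05 over all genes tested). Among the 19129 genes tested, 10.0% were called in either direction and 6.31% were called lower in the dark. Every dark library was below every light library for these 7 genes, a pattern seen in 10.1% of all genes tested. Their median log2 fold change, dark against light, was -7.16, against 0.004 over all genes tested. LHCB1.4 and LHCB2.3 did not pass the filter.

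**Figure D1:**
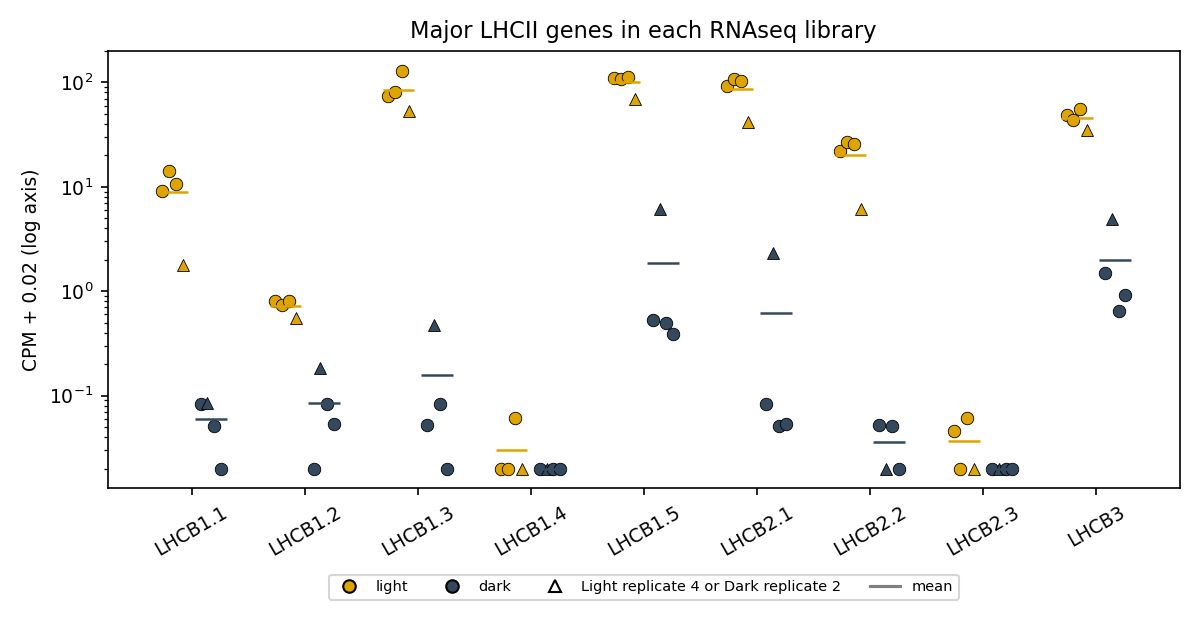
The level of each LHCII gene is shown in every library, as CPM plus 0.02 on a log axis, with light grown libraries in yellow, dark grown libraries in blue, triangles for Light replicate 4 and Dark replicate 2, and a line at each mean of 4 libraries. For 7 genes the light grown points lie above all dark grown points, whereas LHCB1.4 and LHCB2.3 lie at the bottom of the axis in both conditions.

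LHCB1 encodes the main subunit of the trimer. LHCB1.5 had the highest level of the 9 genes in the light. Its levels were 110.8, 108.0, 112.1 and 69.2 CPM in Light replicates 1 to 4 and 0.509, 6.09, 0.471 and 0.365 CPM in Dark replicates 1 to 4. Dark replicate 2 was the highest of the dark libraries, but all were far below the lowest light library. The log2 fold change was -5.75 (SE 0.93, edgeR adjusted p = 0.0064). Without Dark replicate 2 it was -7.78, and without Light replicate 4 and Dark replicate 2 it was -7.93.

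LHCB1.3 was the other strongly expressed gene of the family. It reached 73.7, 80.4, 129.4 and 53.5 CPM in Light replicates 1 to 4. In Dark replicates 1 to 4 it had 1, 14, 2 and 0 counts, or at most 0.456 CPM. Light replicate 3 was the highest light library for this gene, and the dark counts were below the limit of detection except in Dark replicate 2. The log2 fold change was -9.22 (SE 0.70, edgeR adjusted p = 2.33e-04), and it was -11.18 without Dark replicate 2.

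LHCB1.1 and LHCB1.2, the neighbours of LHCB1.3, were expressed at lower levels. LHCB1.1 had 9.04, 14.1, 10.5 and 1.75 CPM in Light replicates 1 to 4 and 2, 2, 1 and 0 counts in Dark replicates 1 to 4. Light replicate 4 thus stood at 15.6% of the mean of the other light libraries, the lowest such value among the 7 genes. The log2 fold change of LHCB1.1 was -7.64 (SE 0.85, edgeR adjusted p = 0.0011). Pooled over libraries, the light level was 239.4 times the dark level, with a 95% counting interval of 102.3 to 738.7.

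LHCB1.2 was the weakest of the tested members, with 30, 24, 19 and 10 counts in the light and 0, 5, 2 and 1 counts in the dark. These are 0.779, 0.713, 0.777 and 0.530 CPM in the light and at most 0.163 CPM in the dark. The light libraries were close to each other and none was reached by a dark library. The log2 fold change was -3.36 (SE 0.69, edgeR adjusted p = 0.018). The call was lost when any 1 of Light replicates 1, 2 or 3 or Dark replicates 3 or 4 was left out, with log2 fold changes of -3.35 to -3.16 and edgeR adjusted p of 0.051 to 0.066. Without Dark replicate 2 the log2 fold change was -4.29 (edgeR adjusted p = 0.0066).

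LHCB1.4 was not detectably expressed. It had 1 count, in Light replicate 3, and 0 in the other 7 libraries, although its neighbour LHCB1.5 had 1306 to 4265 counts in the light. Of the 50-base windows of its exon, 86.3% occurred once in the genome, and 66.1% did so and also differed by more than 2 bases from every window of the other LHCII genes. A count of 0 allows up to 3 counts in a library.

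LHCB2 encodes the subunit whose phosphorylation drives the docking of LHCII to photosystem I. LHCB2.1 was its main transcript, with 92.0, 107.2, 103.7 and 41.7 CPM in Light replicates 1 to 4. Dark replicates 1 to 4 had 2, 70, 1 and 1 counts, so that Dark replicate 2 held 70 of the 74 dark counts. The log2 fold change was -7.16 (SE 1.08, edgeR adjusted p = 0.0048) with all libraries and -10.84 without Dark replicate 2.

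LHCB2.2 had 21.9, 26.9, 25.6 and 6.15 CPM in Light replicates 1 to 4 and 1, 0, 1 and 0 counts in the dark. It therefore did not share the higher value of Dark replicate 2. Its log2 fold change of -9.96 (SE 0.77, edgeR adjusted p = 2.33e-04) was the furthest from 0 of the 7 tested genes with all libraries in the fit. Pooled over libraries, the light level was 1340 times the dark level, with a 95% counting interval of 370.5 to 11070, which is wide because the dark total was 2 counts.

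LHCB2.3 had 1 count in Light replicate 1, 1 in Light replicate 3 and 0 elsewhere. All of its 50-base exon windows (100.0%) occurred once in the genome, and 99.1% also differed by more than 2 bases from every window of the other LHCII genes. Its exons overlap those of AT3G27700 on the opposite strand over 595 bases, and AT3G27700 had 54.6 ± 2.64 CPM in the light and 58.0 ± 2.60 CPM in the dark (SD, n = 4). Whether counting used strand is not given in the sources used here, so reads in the overlap may have been assigned to neither gene.

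LHCB3, a single-copy gene, encodes the third subunit of the trimer. It had 48.9, 43.6, 55.2 and 35.0 CPM in Light replicates 1 to 4. In Dark replicates 1 to 4 it had 1.46, 4.88, 0.628 and 0.895 CPM, from 46, 150, 20 and 27 counts. LHCB3 thus remained above the limit of detection in every dark library. Among the 7 genes only LHCB1.5 did so too. The log2 fold change was -4.54 (SE 0.62, edgeR adjusted p = 0.0029), and -5.51 without Dark replicate 2.

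Compared per length of exon, the mean light levels in CPM per kb were 95.7 ± 19.7 for LHCB1.5, 68.5 ± 26.2 for LHCB1.3, 61.3 ± 21.6 for LHCB2.1 and 36.8 ± 6.88 for LHCB3 (SD, n = 4). Below them stood LHCB2.2 at 17.6 ± 8.37, LHCB1.1 at 6.73 ± 3.96 and LHCB1.2 at 0.572 ± 0.0958 CPM per kb. LHCB1.3 exceeded LHCB2.1 in 2 of 4 light libraries, so the order of these neighbours was not resolved. The ranges of LHCB1.5 and LHCB1.3, of LHCB2.1 and LHCB3, and of LHCB2.2 and LHCB1.1 overlapped, but the order within a library was the same in 4 of 4 libraries. The gap between LHCB3 and LHCB2.2, and that between LHCB1.1 and LHCB1.2, exceeded the spread of the libraries. By mean light level per kb, LHCB1.5 ranked 1029 among 19074 genes with a length, and LHCB3 ranked 2915.

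**Figure D2:**
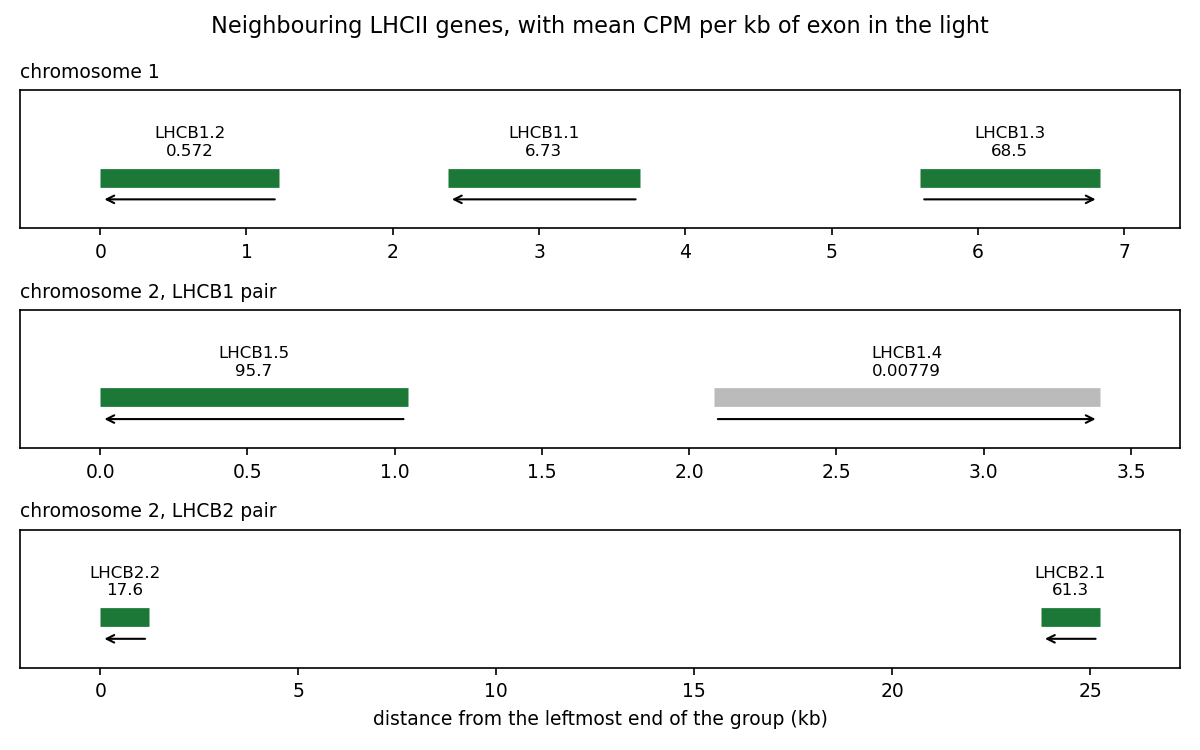
Neighbouring LHCII genes are drawn to scale within each panel (the scale differs between panels), by distance in kb from the left end of the group. Arrows give the direction of transcription, numbers give mean CPM per kb of exon in the light, and grey marks the gene that did not pass the filter. LHCB1.5 at 95.7 and LHCB1.4 at 0.00779 CPM per kb face away from each other across 1038 bases.

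Members of a subfamily share long stretches of sequence, which limits how their counts can be divided. Coding sequences were 95.6% to 96.4% identical among LHCB1.1, LHCB1.2 and LHCB1.3, and 96.6% identical between LHCB2.1 and LHCB2.2. Of the 50-base exon windows, 79.5% of LHCB1.1, 89.4% of LHCB1.2, 83.0% of LHCB1.3, 82.7% of LHCB1.5, 76.5% of LHCB2.1 and 70.5% of LHCB2.2 occurred once in the genome. When windows within 2 mismatches of another LHCII gene were also removed, 41.0% to 54.1% remained, so values of single LHCB1 and LHCB2 members are uncertain. LHCB3, like LHCB2.3, had no exon window that recurred in the genome.

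Opposite-strand neighbours overlapped 3 of the expressed genes by short stretches. NRPA2 overlapped LHCB1.3 by 108 bases, RWA3 overlapped LHCB1.5 by 99 bases, and ATM2 overlapped LHCB3 by 186 bases. None of the 3 neighbours was called, with log2 fold changes of 0.10, -0.11 and -0.39 (edgeR adjusted p = 0.699, 0.655 and 0.234). A long noncoding RNA, AT2G08665, covers all 1045 bases of LHCB1.5 on the opposite strand and was not among the genes counted. If counting ignored strand, which is not given in the sources used here, reads from both strands cannot be told apart there.

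Sums over each subfamily avoid the division of reads between near-identical copies. Any reads dropped in counting because they match several copies would still be missing from the sums. The LHCB1 sum was 193.8 ± 52.6 CPM in the light and 2.1 ± 3.12 CPM in the dark (SD, n = 4), a log2 fold change of -6.53 (SE 0.95, edgeR adjusted p = 0.0040). The LHCB2 sum was 106.3 ± 39.9 CPM in the light and 0.618 ± 1.11 CPM in the dark, a log2 fold change of -7.43 (SE 1.05, edgeR adjusted p = 0.0035). Both sums and LHCB3 were called lower in a table where 6.29% of genes were called lower. The dark SDs of these sums exceeded their means. Without Dark replicate 2 the log2 fold changes were -8.46 for LHCB1, -10.60 for LHCB2 and -5.51 for LHCB3.

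The make-up of the LHCII counts also differed between conditions. LHCB3 gave 13.7%, 11.4%, 12.6% and 16.8% of LHCII counts in Light replicates 1 to 4. It gave 67.6% (95% exact binomial interval 55.2 to 78.5), 35.0% (30.5 to 39.8), 47.6% (32.0 to 63.6) and 67.5% (50.9 to 81.4) in Dark replicates 1 to 4. The share of LHCB3 was therefore higher in every dark library than in any light library. LHCB2 gave 31.9%, 35.2%, 29.6% and 23.0% in the light and 4.4%, 16.4%, 4.8% and 2.5% in the dark, where the totals were 3, 70, 2 and 1 counts. LHCB1 gave 53.3% to 60.1% in the light and 27.9% to 48.6% in the dark.

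**Figure D3:**
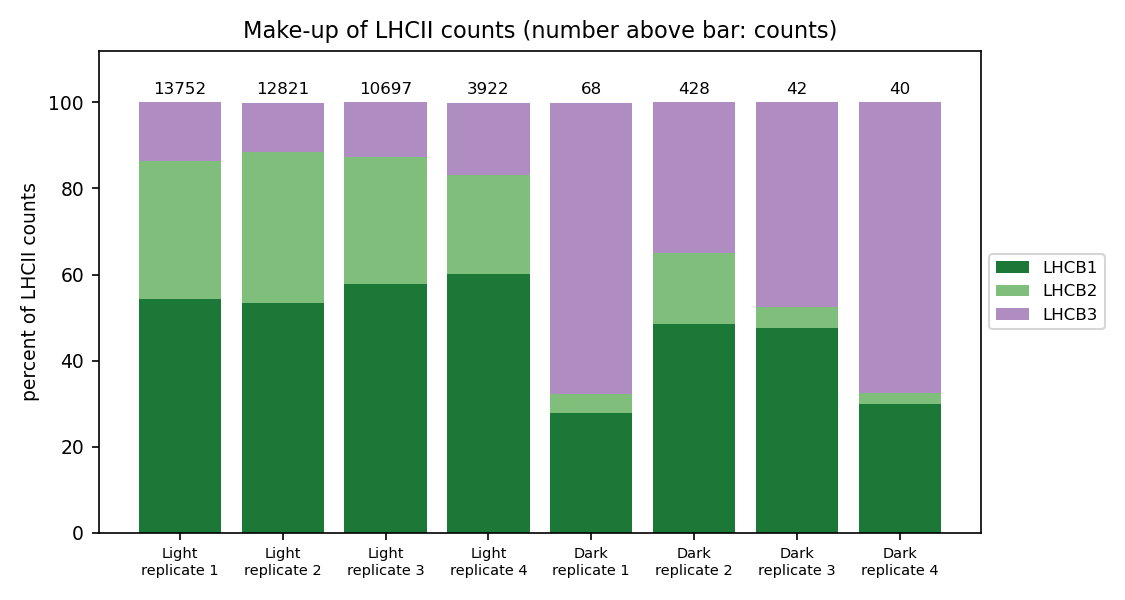
Stacked bars show the percent of LHCII counts from LHCB1, LHCB2 and LHCB3 in each library, with the number of LHCII counts above each bar. LHCB3 takes 11.4% to 16.8% in light grown libraries and 35.0% to 67.6% in dark grown libraries, where the bars rest on 40 to 428 counts.

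The 3 ratios between subfamilies were tested on summed counts per kb of exon with 0.5 counts added, by an exact two-sided permutation test whose smallest p with 4 libraries against 4 is 0.029. The log2 ratio of LHCB3 to LHCB1 was -2.20 ± 0.17 in the light and 0.27 ± 0.85 in the dark (SD, n = 4), a difference of 2.47 (exact permutation p = 0.029, adjusted p = 0.029 over 3 ratios). The log2 ratio of LHCB2 to LHCB1 was -1.19 ± 0.35 in the light and -2.86 ± 0.66 in the dark, a difference of -1.67 with the same exact p. The log2 ratio of LHCB3 to LHCB2 was -1.01 ± 0.50 in the light and 3.13 ± 1.34 in the dark, a difference of 4.14 with the same exact p. As sums, LHCB2 thus fell the most and LHCB3 the least, and no dark library overlapped a light library in any of the 3 ratios. With all libraries in the fit, the estimates of single members did not keep this order. LHCB1.3 (log2 fold change -9.22) fell more than LHCB2.1 (-7.16), while LHCB1.5 (-5.75) fell less, and LHCB1.2 (-3.36) fell less than LHCB3 (-4.54). The intervals of LHCB1.3 and LHCB2.1 overlapped, as did those of LHCB1.2 and LHCB3, and the order of single members was not tested. Without Dark replicate 2, which held 70 of the 74 dark counts of LHCB2.1, LHCB1.3 (-11.18) and LHCB2.1 (-10.84) were close. LHCB1.2 (-4.29) and LHCB3 (-5.51) kept their order in that fit. LHCB1.5 gave 88.4% of the pooled dark counts of LHCB1, so the LHCB1 sum in the dark rests mainly on that gene. Dark replicate 2 was the dark library nearest to the light libraries in each ratio.

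Within LHCB1, LHCB1.5 gave 57.0%, 53.1%, 44.3% and 55.4% of the counts in Light replicates 1 to 4. In the dark it gave 84.2% (60.4 to 96.6), 89.9% (85.0 to 93.6), 75.0% (50.9 to 91.3) and 91.7% (61.5 to 99.8), with exact binomial intervals. These ranges did not overlap, and the difference was seen in the data and not tested. LHCB1.3 gave 37.9% to 51.2% in the light and 0.0% to 10.0% in the dark. Within LHCB2, LHCB2.1 gave 80.0% to 87.2% in the light, and the dark counts of 3 libraries were too few for a share.

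Variation among light grown libraries was uneven across the genes. Light replicate 4 stood at 71.1% of the mean of the other light libraries for LHCB3, 70.1% for LHCB1.2, 62.8% for LHCB1.5, 56.6% for LHCB1.3 and 41.3% for LHCB2.1. It stood at 24.8% for LHCB2.2 and 15.6% for LHCB1.1. All 7 genes were therefore lower in that library. Dark replicate 2 stood at 53.4 times the mean of the other dark libraries for LHCB2.1, 14.5 times for LHCB1.3, 13.6 times for LHCB1.5 and 4.91 times for LHCB3, whereas LHCB2.2 had 0 counts there. Of 3 markers of dark starvation, DIN1 had 0 CPM in Dark replicate 2 and 1.16 to 4.42 CPM in the other dark libraries. The other markers, ASN1 and DIN10, were highest in Dark replicate 1 (26.9 and 88.5 CPM), and Dark replicate 2 (2.31 and 13.7 CPM) lay within the range of Dark replicates 3 and 4 for both. None of the 3 starvation markers was called in edgeR with all libraries, 1 (DIN1) had an unadjusted p under 0.05, and DESeq2 called DIN1 higher. Over all genes, 4819 of 19129 had an unadjusted p under 0.05, and DESeq2 called 3356 of 24569. Without Dark replicate 2, edgeR also called DIN1 higher (log2 fold change 3.68, adjusted p = 0.017). Without Dark replicate 2 all 7 LHCII genes were still called, and their log2 fold changes lay further from 0 except that of LHCB2.2, which was -9.62. Without both Light replicate 4 and Dark replicate 2 all 7 genes were called in edgeR, with log2 fold changes of -8.28 for LHCB1.1, -4.40 for LHCB1.2, -11.35 for LHCB1.3, -11.08 for LHCB2.1, -9.93 for LHCB2.2 and -5.62 for LHCB3. The LHCB1 sum was then at -8.62 and the LHCB2 sum at -10.85.

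The minor antenna proteins link the LHCII trimers to the photosystem II core. All 5 of their genes were lower in the dark, against 6.31% of all genes tested. Their median log2 fold change was -3.35. LHCB5 fell from 50.4 ± 11.9 to 0.714 ± 0.818 CPM (SD, n = 4), a log2 fold change of -6.14 (SE 0.68, edgeR adjusted p = 0.0011). Dark replicate 2 had 1.92 CPM of LHCB5 and the other dark libraries 0.126 to 0.477 CPM, and without it the log2 fold change was -7.32 (edgeR adjusted p = 1.06e-04). LHCB6 had a log2 fold change of -3.85, LHCB4.2 of -3.35, LHCB4.1 of -2.81 and LHCB4.3 of -2.16. LHCB4.1 had 48.0 ± 6.11 CPM in the light and 6.85 ± 0.962 CPM in the dark. Summed over the list, minor antenna genes had 99.2 to 165.0 CPM in the light and 9.06 to 15.5 CPM in the dark.

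LHCII precursors are guided through the stroma and inserted into the thylakoid by a dedicated pathway. Of its 5 genes listed, 4 were lower in the dark, against 6.31% of all genes tested, and 1 did not pass the test. The median log2 fold change was -1.02. CPSRP43, the chaperone particular to light-harvesting proteins, had 7.14 ± 2.09 CPM in the light and 0.500 ± 0.138 CPM in the dark (log2 fold change -3.83, SE 0.33, edgeR adjusted p = 3.20e-04). LTD, which passes the precursors on after import, had 1.26 ± 0.653 CPM in the light and 0 counts in Dark replicates 1 to 3. The log2 fold change of LTD was -5.96 (SE 0.9, edgeR adjusted p = 0.0044). The other called genes changed less, at -1.02 for CPSRP54 and -0.47 for the insertase ALB3. The receptor CPFTSY had a log2 fold change of -0.64 (edgeR adjusted p = 0.113).

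Chlorophyll b is bound by LHCII and stabilises it. Of 5 genes of its synthesis, reduction and phytylation, 3 were lower in the dark, against 6.31% of all genes tested. The median log2 fold change was -0.89. CAO, which makes chlorophyll b, had 15.3 ± 1.69 CPM in the light and 3.71 ± 0.715 CPM in the dark (log2 fold change -2.04, SE 0.17, edgeR adjusted p = 2.85e-04). CHLG, chlorophyll synthase, had a log2 fold change of -1.86, and HCAR, a reductase of the return path from chlorophyll b to a, of -0.89. The chlorophyll b reductase genes NYC1 (34.9 ± 4.99 and 34.8 ± 11.3 CPM) and NOL (4.50 ± 0.584 and 4.50 ± 0.846 CPM) were not called, with 95% intervals of -0.51 to 0.50 and -0.44 to 0.44 on the log2 scale. Among 4 chlorophyll breakdown genes (SGR1, SGR2, PPH and PAO) 0 were called in edgeR, 2 had an unadjusted p under 0.05, and DESeq2 called PAO lower. Over all genes, 4819 of 19129 had an unadjusted p under 0.05, and DESeq2 called 1871 of 24569 lower. PAO had a log2 fold change of -0.77 (edgeR adjusted p = 0.051), and SGR2 was called higher in edgeR when Dark replicate 2 was left out.

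Of 4 genes that set LHCII phosphorylation, 2 were lower in the dark, against 6.31% of all genes tested. STN7, the LHCII kinase, had 36.6 ± 2.94 CPM in the light and 14.9 ± 1.27 CPM in the dark (log2 fold change -1.30, SE 0.10, edgeR adjusted p = 2.33e-04). TAP38, the phosphatase that opposes it, had a log2 fold change of -0.59. The corresponding pair for the photosystem II core, STN8 and PBCP, had log2 fold changes of -0.37 and -0.41 and did not pass the test.

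**Figure D4:**
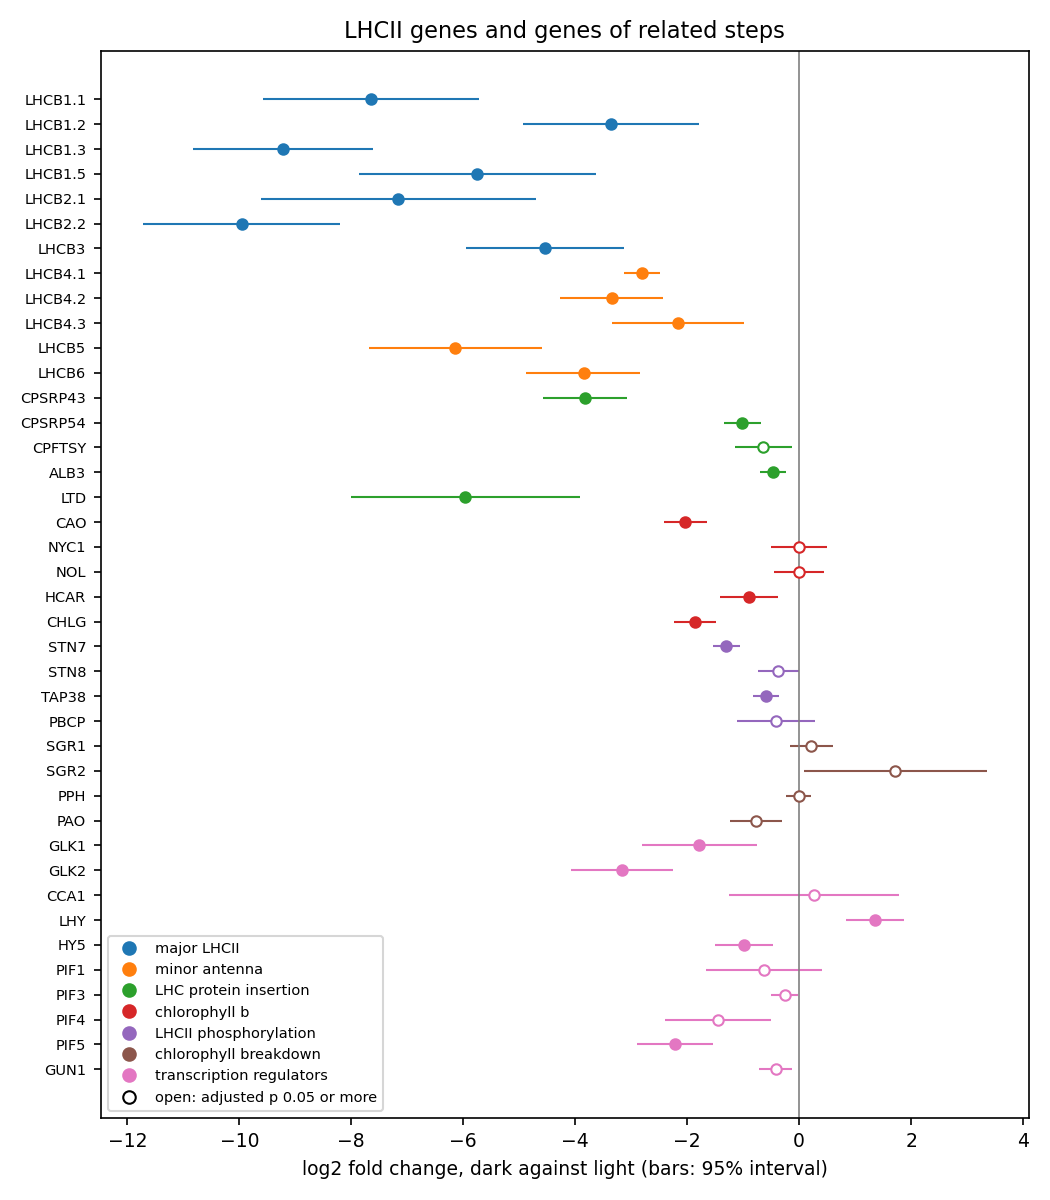
Log2 fold changes, dark against light, are shown with 95% intervals for the 7 tested LHCII genes and for the genes of related steps, coloured by list, with open points where the adjusted p was 0.05 or more. The LHCII genes lie between -9.96 and -3.36, while the genes of phosphorylation and chlorophyll breakdown lie between -1.30 and 1.71.

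Among 10 genes for transcription factors and signalling proteins that act on LHCB genes in seedlings, 4 were lower and 1 was higher in edgeR. Of all genes tested, 10.0% were called in either direction and 6.31% were called lower in the dark. GLK2, an activator of genes for chloroplast proteins, had 3.87 ± 1.05 CPM in the light and 0.429 ± 0.205 CPM in the dark (log2 fold change -3.17, SE 0.40, edgeR adjusted p = 0.0019). Its paralogue GLK1 had a log2 fold change of -1.78 and lost its call without Light replicate 4. PIF5 had -2.22 and HY5, a promoter of light responses, had -0.99. LHY, a morning factor of the circadian clock, was higher in the dark, at 11.3 ± 2.77 and 29.0 ± 6.82 CPM (log2 fold change 1.36, SE 0.23, edgeR adjusted p = 0.0075). CCA1, its paralogue, had a log2 fold change of 0.26 and was not called in edgeR, and neither were PIF1, PIF3, PIF4 or GUN1. DESeq2 called 6 genes of this list lower, PIF4 and GUN1 among them, and 1 higher. Over all genes it called 3356 of 24569, of which 1871 were lower. Without Light replicate 4, edgeR called PIF4 lower.

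The 6 markers of dividing cells (CYCB1;1, CYCB1;2, CDKB1;1, CDKB2;1, CDKB2;2 and KNOLLE) had log2 fold changes of -0.99 to -0.33, and 0 of 6 were called in edgeR. At an unadjusted p under 0.05 there were 3, against 4819 of all 19129 genes tested. DESeq2 called 1 (KNOLLE), against 3356 of all 24569 genes in its test. The summed level of the 6 markers was 259.6 to 485.3 CPM in the light and 162.7 to 336.0 CPM in the dark. All 6 estimates were below 0, and their part in the LHCII results was not tested. Without Light replicate 4, CYCB1;1 was called lower.

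The 5 genes with profiles closest to the mean of the 7 tested LHCII genes were found by the root mean square difference of centred log2 CPM over the 8 libraries. They were PSAE-1 (0.30), AT1G32470 (0.36), LHCA2 (0.37), PTAC16 (0.43) and PSAH2 (0.47). PSAE-1 and PSAH2 encode photosystem I subunits and LHCA2 an antenna protein of photosystem I. PSAE-1 had 15.3 CPM in the light and 0.0646 CPM in the dark, and LHCA2 had 41.6 and 0.306 CPM. The LHCII genes themselves lay 0.51 (LHCB1.5) to 1.97 (LHCB1.2) from the mean that they form. These 5 genes were picked as the nearest of all other tested genes. Their smaller distances reflect that choice and do not rank them against the members. This likeness is a description over 8 libraries that share the same conditions.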

How the data were processed

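RNAseq reads (50 bp, paired) from 8 libraries were aligned by the authors to TAIR10 (TopHat2, Araport11 gene models), and the authors counted reads per gene with HTSeq. These counts were deposited without normalization or pooling. Tool versions, the counting mode and the use of strand are not given in the sources used here. A second deposited table holds fold changes and p-values of the authors' own edgeR comparison and was not used. The 8 MNase-seq samples lie outside the comparison and were not used here.

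Counts were fitted with edgeR 4.0.16 in R 4.3.3 (TMM, filterByExpr with a minimum count of 10 and a minimum total of 15, robust quasi-likelihood test, Benjamini-Hochberg adjustment over 19129 genes, threshold 0.05). Subfamily sums were fitted in a table where they replaced their members. SE is the absolute log2 fold change over the root of F. Ratios between subfamilies used an exact permutation test in Python 3.11.15. Positions, exon lengths, 50-base windows and promoter windows came from RefSeq TAIR10.1, in which 96.6% of the gene identifiers were found. The count file carries no coordinates. Log2 CPM used a prior count of 2. The fit was tested on simulated data with known changes (seed 11). Within a condition no 2 libraries agreed within sampling noise (chi-square per degree of freedom 23.7 to 132).

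All 9 members are named. For the other lists the called genes are named, at most 4 by size of change, and otherwise those with the highest level, and the 5 nearest profiles are given. NYC1 and NOL, the uncalled regulators, the uncalled insertion, phosphorylation and breakdown genes and the markers are named beyond that rule, chosen after their values were seen. The members and lists were chosen with earlier results of these data known. Alternatives were RLE size factors, library totals only, no filter, at least 1 CPM in 4 libraries, DESeq2 1.42.0, a replicate block and each library left out. Another used only Light replicates 2 and 3 and Dark replicates 3 and 4, taken as the libraries paired with MNase-seq. Chosen after seeing the data was a fit of 6 libraries without Light replicate 4 and Dark replicate 2. For the ratios, 2 counts were added in place of 0.5, and windows found once replaced exon length.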

Additional observations from a re-analysis of the deposited data

Results flagged for a closer look

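Of 32 groups of 4 libraries searched for a library far from the others by Dixon's criterion, 8 were marked, where chance marks about 1 in 20 groups (1.6 here). Dark replicate 2 stood above the other dark libraries for LHCB1.3 (0.456 against 0.0 to 0.0628 CPM), LHCB1.5 (6.09 against 0.365 to 0.509 CPM) and LHCB2.1 (2.28 against 0.0314 to 0.0636 CPM). The same library stood apart for the LHCB1 sum (6.77 against 0.398 to 0.628 CPM), the LHCB2 sum (2.28 against 0.0331 to 0.0954 CPM) and the LHCB2 share of LHCII counts (16.4% against 2.5% to 4.76%). Light replicate 4 stood below the other light libraries for LHCB1.5 (69.2 against 108.0 to 112.1 CPM). LHCB1.4 was marked in Light replicate 3 (0.0409 CPM, the others at 0), which is 1 count. These groups share libraries and members, so the marks are not independent, and their cause was not tested.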

How the results depend on the processing

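The subfamily sums, LHCB3 and the ratios kept their direction under every alternative run. The sums and LHCB3 kept their call under all of them. The size of the ratio differences depended on the counts added. With 2 counts in place of 0.5 they were -1.20 for LHCB2 to LHCB1, 2.44 for LHCB3 to LHCB1 and 3.64 for LHCB3 to LHCB2. Leaving out 1 library gave log2 fold changes of -8.46 to -6.18 for LHCB1, -10.60 to -7.04 for LHCB2 and -5.51 to -4.23 for LHCB3, and 6 to 7 called members. Among members only LHCB1.2 lost its call, in 5 such fits, and it did not pass a filter of 1 CPM in 4 libraries. The number of called genes over the whole table moved more, from 1912 to 3356 with DESeq2 and 962 to 2873 with 1 library left out. It was 4850 in the 6 libraries without Light replicate 4 and Dark replicate 2. It was 5387 with only the 4 libraries taken as paired with MNase-seq, which also leave out Light replicate 4 and Dark replicate 2. The labels do not say whether replicate numbers pair the samples. Deviations of same-numbered libraries correlated at -0.161, 0.589, -0.016 and 0.214, which does not settle it. With a replicate block 2221 genes were called, 7 members among them, and the ratio differences of -1.67, 2.47 and 4.14 had p = 0.125 in an exact sign-flip test, the smallest that 4 pairs allow. Outside Dark replicate 2, members other than LHCB1.5 and LHCB3 had 0 to 3 counts in each dark library. Such counts limit the size of their fold changes, which rest on few reads. Other limits are the shared sequence of LHCB1 and LHCB2 members and the strand setting, which is not given in the sources used here.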
